A study of Homo sapiens with 24 samples.

Results

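The genes described here encode the nuclear subunits of respiratory complexes II to V. They were chosen by symbol: the SDHA to SDHD genes of complex II, the UQCR genes of complex III, the COX4 to COX8 genes of complex IV and the ATP5 genes of complex V, without pseudogenes. The rule found 49 of the 61853 gene rows, with 4 in complex II, 9 in complex III, 17 in complex IV and 19 in complex V. The last group holds ATP5IF1, an inhibitor of ATP synthase that is not a subunit, and the complex IV group holds COX7A2L, a factor that joins complexes III and IV into supercomplexes.

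Ribosomal RNA depleted RNA-seq libraries were made from sucrose density gradient fractions of cells labelled 293T, the name of a human embryonic kidney cell line. All cells carried the DIS3-sh2 knockdown of DIS3, an exonuclease of the RNA exosome. One group was rescued with DIS3 D146N, the mutant named in the labels, and the other with DIS3 WT. Fractions 3, 4, 7 and 8 were sequenced from each genotype in 3 replicates, which gives 8 groups and 24 libraries of 21150619 to 32989418 counts. Both genotypes carry the knockdown and a rescue construct, and libraries without a rescue were not analysed here. The labels number the replicates without saying that they are separate cultures, so p-values measure the spread between these samples, which may be technical. The density that each fraction number stands for is not given in the sources used here, nor is whether the numbers run the same way in both genotypes.

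The respiratory chain moves electrons to oxygen and pumps protons across the inner mitochondrial membrane, and ATP synthase uses the proton gradient to make ATP. Complex II oxidises succinate, complex III passes electrons from ubiquinol to cytochrome c, and complex IV passes them on to oxygen. Apart from complex II, each of these complexes joins subunits translated in the cytosol from nuclear mRNAs with subunits made inside mitochondria. A sucrose gradient separates particles by size and density, so the fraction in which an mRNA is found reflects the ribosomes and proteins bound to it.

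Nuclear genes of the respiratory chain are known for promoters with sites for NRF1 and for ETS family factors such as GABP. RefSeq promoter windows of GRCh38.p14, which run from 250 bases before to 50 bases after the start, were found for 38 of the 49 members, as 44 windows. The ETS core CCGGAAG, read on both strands, was in 17 of the 44 windows (38.6%), against 10.3% of all 35116 windows. The NRF1 core GCATGCGC was in 9 windows (20.5%, against 3.05% of all windows). The YY1 core AAGATGGCG was in 4 windows (9.09%, against 1.75%) and the CRE core TGACGTCA in 3 windows (6.82%, against 1.85%). Matches of different cores overlapped in 0 of the member windows. The 100 bases before the start are shown for 3 mRNAs that were among the most enriched in WT fractions 7 and 8 of their complexes and for 2 that were depleted there. Capitals mark matches to these cores, and each sequence reads 5′ to 3′ on the strand of its gene.
UQCRH, chr1:46303598-46303697, plus strand: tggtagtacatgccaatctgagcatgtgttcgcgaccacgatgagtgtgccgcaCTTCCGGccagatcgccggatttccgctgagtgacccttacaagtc
COX6B1, chr19:35648223-35648322, plus strand: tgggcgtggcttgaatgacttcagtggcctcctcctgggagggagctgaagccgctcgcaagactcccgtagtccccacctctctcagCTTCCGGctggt
ATP5PF, chr21:25735055-25735154, minus strand: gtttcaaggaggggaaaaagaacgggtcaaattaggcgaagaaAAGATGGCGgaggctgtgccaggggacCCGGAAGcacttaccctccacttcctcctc
UQCRC1, chr3:48609647-48609746, minus strand: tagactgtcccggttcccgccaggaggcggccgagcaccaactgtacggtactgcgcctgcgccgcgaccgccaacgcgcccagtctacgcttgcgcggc
ATP5F1A, chr18:46098297-46098396, minus strand: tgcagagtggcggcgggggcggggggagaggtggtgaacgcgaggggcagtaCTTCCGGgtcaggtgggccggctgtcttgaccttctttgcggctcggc
The ETS core stood in the printed runs of UQCRH, COX6B1, ATP5PF and ATP5F1A, genes from both sides of the fraction contrast described next. ATP5PF and ATP5F1A had 2 windows each. The first window with a match in the printed run was shown, so their printed matches were selected. Over the full windows the ETS core was in 15 of the 29 matched members that were higher in WT fractions 7 and 8. It was in 1 of the 3 matched members that were lower, with a member counted if any of its windows held the core. A match is a run of letters and not a measured site.

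Expression was set side by side in CPM, the usual unit that relates the count of a gene to all counts assigned to genes in its library. Of the 49 members, 42 passed the count filter of the fit across 18907 genes. The 7 others are COX4I2, COX6A2, COX6B2, COX7A1, COX7B2 and COX8C, which are isoforms of heart, skeletal muscle, lung or testis, and ATP5MGL, a gene similar to ATP5MG. COX6A2, COX7A1 and COX7B2 had 0 counts in all 24 libraries, which allows up to 3 counts in a library by counting error alone. The remaining 4 stayed at or below 0.544 CPM. As in any bulk library, fewer cells holding an mRNA and less of it per cell cannot be told apart.

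The fold changes depend on how libraries are scaled, so both scales are given. TMM scaling sets a typical gene to no change. Its factors averaged 2.81 and 2.76 in D146N fractions 7 and 8, 0.366 and 0.366 in D146N fractions 3 and 4, 0.365 and 0.426 in WT fractions 7 and 8, and 2.51 in each of fractions 3 and 4 of WT cells. Scaling to library totals asks instead what share of the sequenced RNA an mRNA takes. For fractions 7 and 8 against 3 and 4, the median log2 fold change of all genes was 0.10 in D146N cells on the TMM scale and 3.00 on library totals. The same medians in WT cells were -0.18 and -2.83. A higher value on the TMM scale therefore means higher relative to the typical gene.

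The libraries were compared before any test. Over 9373 genes with a mean count of at least 100, pairs of libraries from one group differed by 1.37 to 4.75 times the counting noise. The pairs that held WT fraction 8 replicate 3 differed by 9.76 and 10.5 times, so this library stands apart from its 2 partners. It is named below beside the members in which it differs most. Of 8 marker genes of the HEK293 lineage, 3 (VIM, DPYSL2 and CDH2) averaged above 1 CPM, and SOX11 was at 0 in every library. Of 13 hepatocyte markers, 10 did. Their summed level was 557 to 611 CPM in D146N fractions 7 and 8, 28.4 to 34.3 CPM in D146N fractions 3 and 4, 32.6 to 131 CPM in WT fractions 7 and 8, and 654 to 696 CPM in WT fractions 3 and 4. Among these, APOB reached 404 CPM, ALB 142 CPM and AFP 116 CPM in their highest library. Of the HEK293 list, NEFM, NEFL, PAX2 and LHX1 reached at most 3.11 CPM in any library. The summed HEK293 markers swung the same way, at 236 to 257, 23.4 to 27.0, 18.0 to 22.2 and 255 to 267 CPM in the same order of groups. These sums lay below the hepatocyte sums in each of those groups. The name 293T comes from the labels, and these markers do not bear it out. What the cells are was not tested further. The fibroblast, epithelial and haematopoietic sums, at 15.8 CPM or less, were also higher on those sides. None of the 7 haematopoietic markers averaged above 1 CPM. DIS3 itself averaged 101 and 97.6 CPM in D146N fractions 7 and 8, 8.58 and 9.12 CPM in D146N fractions 3 and 4, 4.94 and 5.88 CPM in WT fractions 7 and 8, and 98.3 and 95.1 CPM in fractions 3 and 4 of WT cells. The part of these patterns in the results on respiratory mRNAs was not tested.

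Most respiratory subunit mRNAs lay in opposite fractions in the 2 genotypes, relative to the typical gene. In D146N cells, 34 of the 42 tested members were lower in fractions 7 and 8 than in fractions 3 and 4, 5 were higher and 3 did not pass the test, by edgeR's quasi-likelihood test at an adjusted p under 0.05. In all genes tested, 30.3% were lower and 29.9% higher. In WT cells, 35 of the 42 were higher in fractions 7 and 8, 4 were lower and 3 did not pass, against 34.6% higher and 39.3% lower among all genes. The median log2 fold change of the members was -1.91 in D146N cells and 2.98 in WT cells.

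On library totals the split turned in D146N cells and narrowed in WT cells. In D146N cells, 34 members were then higher in fractions 7 and 8 and 4 were lower, with 88.9% of all genes higher and 4.08% lower, and the members' median was 1.02. In WT cells, 23 members were then higher and 16 lower, with 7.65% of all genes higher and 83.6% lower, and the median was 0.28. Called on both scales, 5 members were higher and 4 lower in D146N fractions 7 and 8 (29.9% and 4.08% of all genes). In WT fractions 7 and 8, 23 were higher and 4 lower on both scales (7.65% and 39.3% of all genes). Called in opposite directions on the 2 scales were 26 members in D146N cells and 9 in WT cells. The share of all genes called in opposite directions was not counted. Among all genes, 30.3% were lower in D146N fractions 7 and 8 on the TMM scale and 4.08% on both scales. In WT fractions 7 and 8, 34.6% were higher on the TMM scale and 7.65% on both, so the calls of many other genes changed as well. The 4 that were lower on both scales in WT fractions 7 and 8 are SDHA, UQCRC1, ATP5F1A and ATP5F1B, and all 4 were higher on both scales in D146N fractions 7 and 8.

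**Figure D1:**
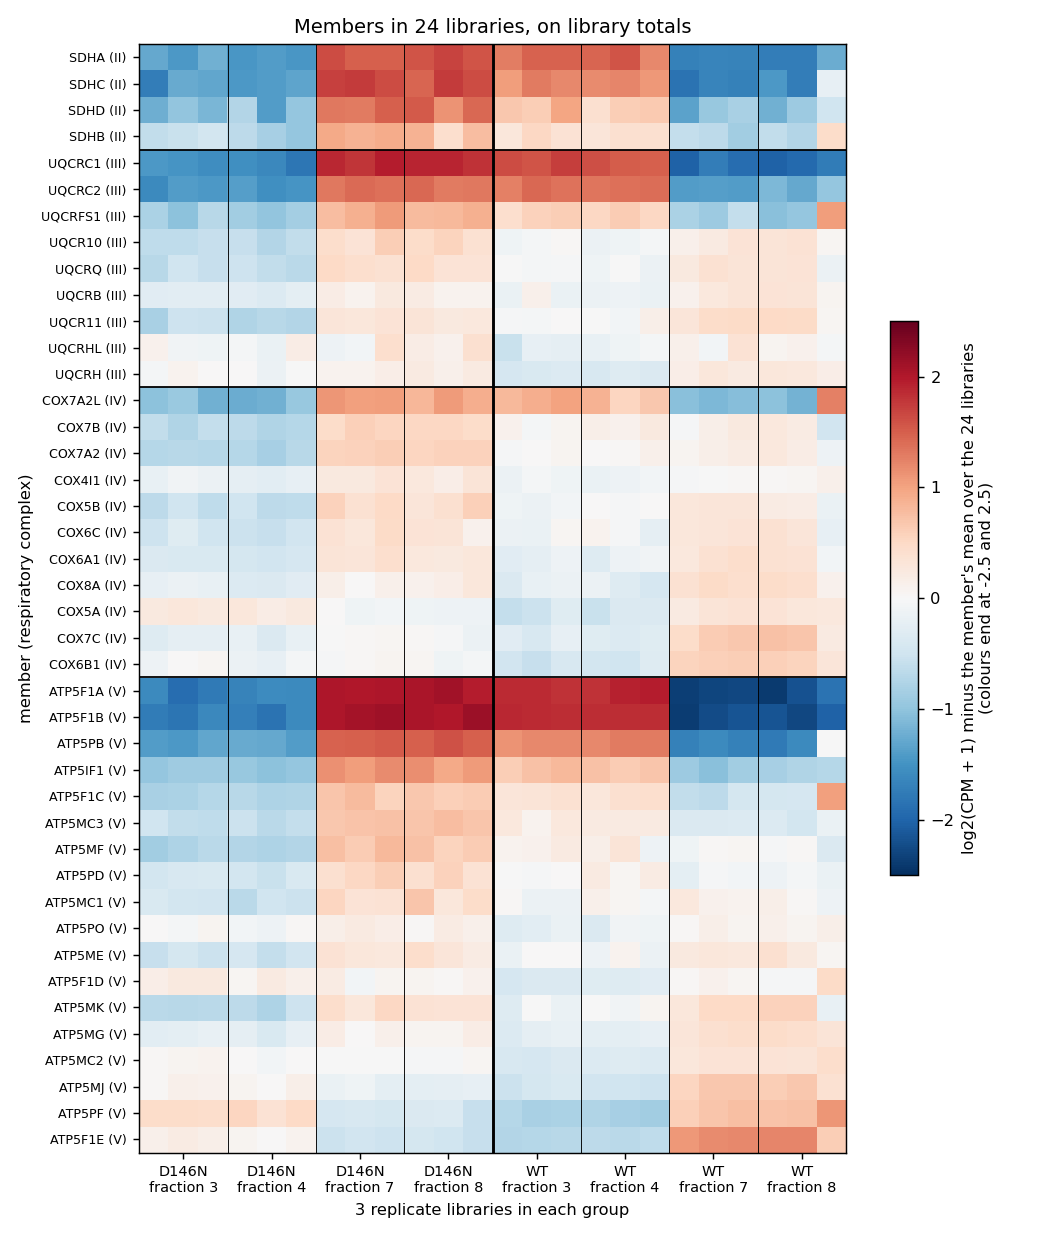
Each row is 1 of the 42 tested members, grouped by complex and ordered by its WT fold change, and each column is 1 of the 24 libraries. Colour gives log2(CPM + 1) minus the member's mean over the libraries. UQCRC1, ATP5F1A and ATP5F1B are darkest, with red in D146N fractions 7 and 8 and WT fractions 3 and 4, while ATP5F1E and ATP5PF at the bottom run the other way.

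The heat map of the members on library totals shows a range of rows within each of complexes III and V. UQCRC1, UQCRC2, ATP5F1A, ATP5F1B and ATP5PB stand far from the small subunits of the same complexes. UQCRFS1, ATP5F1C, ATP5MC3 and ATP5IF1 lie between. In complex IV, COX7A2L had medians of 38.9 CPM in D146N fractions 7 and 8 and 7.98 CPM in D146N fractions 3 and 4. Its WT medians were 8.33 and 33.8 CPM on the same sides. The standard deviation of the log2 fold changes over the 42 members was 1.26 in D146N cells and 1.58 in WT cells, against 1.44 and 1.78 over all genes. The members thus varied among themselves nearly as widely as genes at large.

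In complex II, SDHA, the flavoprotein that oxidises succinate, measured 23.1, 24.5 and 26.9 CPM (lowest, median and highest of 6 libraries) in D146N fractions 7 and 8, and 2.15, 2.22 and 2.75 CPM in D146N fractions 3 and 4. Its WT levels were 1.58, 1.69 and 2.63 CPM in fractions 7 and 8, and 18.7, 22.8 and 24.5 CPM in fractions 3 and 4. The libraries of the 2 sides did not overlap in either genotype, and the high side was fractions 7 and 8 in D146N cells and fractions 3 and 4 in WT cells. The log2 fold change of SDHA was 0.48 ± 0.09 (SE) in D146N cells (adjusted p = 3.81e-05) and -0.92 ± 0.09 in WT cells (adjusted p = 6.84e-11). On library totals it was 3.40 and -3.59. Rows of SDHA pseudogenes held 52.0% of the counts shared between SDHA and its copies, 7766 of them against 7158 in SDHA, so the level of SDHA is uncertain. With those counts added the fold changes were 0.34 and -0.61, both still called.

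SDHB, the iron-sulphur subunit, moved the other way on the TMM scale. It measured 13.1, 18.4 and 19.3 CPM in D146N fractions 7 and 8, and 4.39, 5.85 and 6.70 CPM in D146N fractions 3 and 4. WT cells had 4.80, 5.82 and 13.6 CPM in fractions 7 and 8, and 12.0, 12.8 and 14.1 CPM in fractions 3 and 4. The WT sides overlapped only through WT fraction 8 replicate 3, the library at 13.6 CPM. The log2 fold change was -1.29 ± 0.11 in D146N cells (adjusted p = 4.08e-12) and 1.73 ± 0.11 in WT cells (adjusted p = 5.79e-16). On library totals it was 1.64 and -0.92, the opposite signs.

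SDHC and SDHD are the membrane anchors of complex II. SDHC measured 36.4, 42.5 and 45.0 CPM in D146N fractions 7 and 8, against 3.12, 4.33 and 4.72 CPM in D146N fractions 3 and 4. It measured 2.81, 3.28 and 10.9 CPM in WT fractions 7 and 8, against 27.0, 30.1 and 32.3 CPM in WT fractions 3 and 4. Its sides did not overlap in either genotype. Its log2 fold change was 0.40 ± 0.14 in D146N cells (adjusted p = 0.0207) and -0.14 ± 0.14 in WT cells (adjusted p = 0.398). Without WT fraction 8 replicate 3 the WT value was -0.40 (adjusted p = 6.90e-05). SDHD had a log2 fold change of -0.20 ± 0.12 in D146N cells (adjusted p = 0.143) and 0.85 ± 0.11 in WT cells (adjusted p = 3.48e-08), from medians of 23.1 and 3.46 CPM in D146N fractions 7 and 8 and fractions 3 and 4, and of 3.88 and 13.4 CPM in the same WT fractions. Copies of SDHD held 9.01% of the counts named after it.

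The share of complex II in the summed member counts of a library needs no scaling between libraries. It averaged 3.47% in D146N fractions 7 and 8 and 0.866% in D146N fractions 3 and 4, a difference of 2.61 percentage points (SD 0.0127 over 3 replicate sets). In WT cells it averaged 0.654% in fractions 7 and 8 and 3.23% in fractions 3 and 4, a difference of -2.58 points (SD 0.285). The sets join libraries by replicate number, which was not shown to mark pairs, so these SDs may understate the spread. Between the 3 libraries of a group the SD of the share was 0.057 to 0.072 points in D146N cells. In WT cells it was 0.016 to 0.454 points. No test was run on these shares. With pseudogene counts added to their members the differences were 3.29 and -3.48 points. WT fraction 8 replicate 3 had 1.31%, while its 2 partners had 0.514% and 0.528%, and even this library lay below all WT libraries of fractions 3 and 4.

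**Figure D2:**
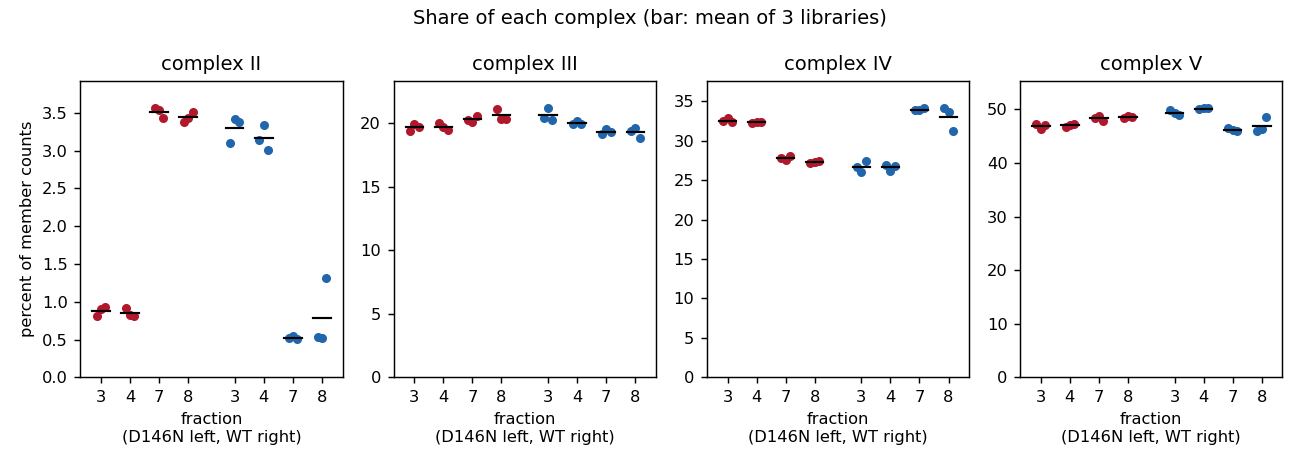
Each panel gives the percent of the summed member counts that fell on 1 complex, with 1 point for each library and a bar for the mean of 3, D146N left and WT right. In the complex II panel D146N fractions 7 and 8 and WT fractions 3 and 4 sit between 3.01% and 3.56%, and all other libraries at or below 1.31%.

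The other complexes shifted less relative to their size, as the panels of complex shares show. Complex IV averaged 27.6% of member counts in D146N fractions 7 and 8 and 32.5% in D146N fractions 3 and 4, while WT cells had 33.5% in fractions 7 and 8 and 26.7% in fractions 3 and 4. Complex III averaged 20.5% and 19.7% on the same sides in D146N cells, and 19.3% and 20.3% in WT cells. Complex V averaged 48.5% and 47.0% in D146N cells, and 46.6% and 49.8% in WT cells. All members together took 0.304% to 0.318% of the counts in D146N fractions 7 and 8, 0.170% to 0.187% in D146N fractions 3 and 4, 0.2501% to 0.276% in WT fractions 7 and 8, and 0.234% to 0.247% in fractions 3 and 4 of WT cells.

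In complex III, 7 of the 9 members were lower in D146N fractions 7 and 8 than in fractions 3 and 4, 1 was higher and 1 did not pass. Of all genes, 30.3% were lower and 29.9% higher there. In WT cells 7 were higher in fractions 7 and 8, 1 was lower and 1 did not pass (34.6% and 39.3% of all genes higher and lower). The exceptions were the core proteins UQCRC1 and UQCRC2, which are the large subunits on the matrix side of the complex. UQCRC1 measured 50.1, 54.2 and 56.7 CPM in D146N fractions 7 and 8 and 3.22, 4.12 and 4.46 CPM in D146N fractions 3 and 4. The WT libraries gave 2.63, 2.92 and 3.47 CPM in fractions 7 and 8 and 41.0, 43.5 and 48.3 CPM in fractions 3 and 4. The sides lay far apart in both genotypes. The log2 fold change on the TMM scale was 0.81 ± 0.08 in D146N cells (adjusted p = 1.59e-11) and -1.19 ± 0.08 in WT cells (adjusted p = 3.87e-16). UQCRC2 had log2 fold changes of 0.05 ± 0.06 (adjusted p = 0.53) and -0.06 ± 0.06 (adjusted p = 0.413). It did pass with some libraries left out. Leaving out any 1 of the 6 libraries of D146N fractions 7 and 8 gave 0.18 to 0.21 with an adjusted p of 0.00381 to 0.0113 in D146N cells. Leaving out any 1 of the 6 libraries of WT fractions 3 and 4 gave -0.19 to -0.15 with an adjusted p of 0.00516 to 0.0255 in WT cells. Other members ranged about as widely with 1 library left out, so such shifts were not particular to UQCRC2. In D146N cells ATP5F1A ran from 0.90 to 1.09 and COX6B1 from -2.86 to -2.69. In WT cells ATP5F1A ran from -1.77 to -1.62. UQCRC2 measured 62.3, 64.1 and 68.5 CPM in D146N fractions 7 and 8, against 7.44, 8.33 and 8.81 CPM in D146N fractions 3 and 4, and 8.68, 9.18 and 12.1 CPM in WT fractions 7 and 8, against 60.5, 65.0 and 67.9 CPM in WT fractions 3 and 4.

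The small subunits of complex III behaved alike. UQCRH, the hinge protein that helps cytochrome c bind, measured 157, 164 and 174 CPM in D146N fractions 7 and 8, and 135, 148 and 157 CPM in D146N fractions 3 and 4. In WT cells the values were 166, 177 and 181 CPM in fractions 7 and 8, and 111, 115 and 118 CPM in fractions 3 and 4. The WT sides did not overlap and the D146N sides met at their edges. Its log2 fold change was -2.76 ± 0.08 in D146N cells (adjusted p = 2.09e-26) and 3.30 ± 0.08 in WT cells (adjusted p = 1.12e-28), and 0.17 and 0.61 on library totals. UQCR11, another small subunit, had log2 fold changes of -1.92 ± 0.11 (adjusted p = 4.59e-13) and 3.10 ± 0.12 (adjusted p = 2.54e-17), and 1.01 and 0.39 on library totals. UQCR10, UQCRQ and UQCRB lay between 3.02 and 3.05 in WT cells and between -2.49 and -1.80 in D146N cells. UQCRHL, a retrocopy of UQCRH whose reads may be shared with it, was at 1.21 to 3.39 CPM in all libraries and was called in the same direction as UQCRH in both genotypes.

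UQCRFS1, the Rieske iron-sulphur protein, lay between the core proteins and the small subunits. It measured 22.1, 23.3 and 27.4 CPM in D146N fractions 7 and 8, against 5.65, 6.43 and 7.34 CPM in D146N fractions 3 and 4. Its WT levels were 5.55, 6.53 and 27.0 CPM in fractions 7 and 8, against 17.0, 18.8 and 20.0 CPM in fractions 3 and 4. The value of 27.0 CPM is WT fraction 8 replicate 3, and the other 5 WT libraries of fractions 7 and 8 reached 7.94 CPM at most. Its WT log2 fold change was 1.63 on the TMM scale and 1.18 without that library, called in both fits.

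In complex IV all 11 tested members were lower in D146N fractions 7 and 8 on the TMM scale (30.3% of all genes), with a median of -2.20. All 11 were higher in WT fractions 7 and 8 (34.6% of all genes), with a median of 3.03. On library totals 9 were higher and 1 lower in D146N cells (88.9% and 4.08% of all genes). In WT cells 8 were then higher and 1 lower (7.65% and 83.6% of all genes). COX6B1, which faces the intermembrane space near the cytochrome c site, measured 36.1, 39.0 and 40.7 CPM in D146N fractions 7 and 8, and 33.6, 36.6 and 40.3 CPM in D146N fractions 3 and 4. WT cells had 48.2, 58.8 and 60.6 CPM in fractions 7 and 8, and 25.9, 27.9 and 30.8 CPM in fractions 3 and 4. The sides overlapped in D146N cells and stood apart in WT cells. The log2 fold change on the TMM scale was -2.85 ± 0.09 in D146N cells (adjusted p = 6.87e-23) and 3.72 ± 0.09 in WT cells (adjusted p = 6.89e-26), and 0.07 and 1.02 on library totals.

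COX7C, a small membrane subunit, measured 137, 152 and 156 CPM in D146N fractions 7 and 8, and 118, 129 and 133 CPM in D146N fractions 3 and 4. The WT libraries gave 177, 240 and 253 CPM in fractions 7 and 8, and 114, 123 and 132 CPM in fractions 3 and 4. The sides did not overlap in either genotype on library totals, and fractions 7 and 8 were the higher side in both. On the TMM scale its log2 fold change was -2.69 ± 0.11 in D146N cells (adjusted p = 1.10e-18) and 3.603 ± 0.11 in WT cells (adjusted p = 1.12e-21). On library totals it was 0.24 and 0.89. The small nucleolar RNA gene SNORD138 lies within COX7C, and whether the counting used strand is not given in the sources used here, so reads of genes that overlap cannot be told apart.

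COX7B and COX7A2L were at the low end of complex IV. COX7B had log2 fold changes of -1.67 ± 0.15 in D146N cells (adjusted p = 6.45e-09) and 2.68 ± 0.15 in WT cells (adjusted p = 2.62e-12), with 1.25 and -0.03 on library totals. COX7A2L measured 33.5, 38.9 and 40.5 CPM in D146N fractions 7 and 8, against 7.20, 7.98 and 9.14 CPM in D146N fractions 3 and 4. In WT cells the values were 7.52, 8.33 and 45.4 CPM in fractions 7 and 8, against 27.0, 33.8 and 37.8 CPM in fractions 3 and 4. A single library, WT fraction 8 replicate 3, gave the 45.4 CPM, and the other 5 reached 8.59 CPM at most. Its log2 fold change was -0.71 ± 0.26 in D146N cells (adjusted p = 0.0284) and 1.26 ± 0.26 in WT cells (adjusted p = 0.000275), and 0.73 in WT cells without that library (adjusted p = 2.38e-13). The D146N call was lost when any 1 of 9 of the 12 D146N libraries was left out, with an adjusted p of up to 0.145.

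COX5A, a subunit on the matrix side, was 1 of 4 members called lower on both scales in D146N fractions 7 and 8. It measured 58.5, 59.2 and 64.0 CPM in D146N fractions 7 and 8, against 72.5, 75.7 and 78.1 CPM in D146N fractions 3 and 4. It measured 74.5, 79.0 and 82.4 CPM in WT fractions 7 and 8, against 41.9, 46.6 and 51.7 CPM in WT fractions 3 and 4. Neither pair of sides overlapped. The others were ATP5MJ, ATP5F1E and ATP5PF of complex V.

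In complex V, 15 of the 18 tested members were lower and 2 higher in D146N fractions 7 and 8 (30.3% and 29.9% of all genes). In WT fractions 7 and 8, 15 were higher and 2 lower (34.6% and 39.3% of all genes). The 2 exceptions were ATP5F1A and ATP5F1B, the alpha and beta subunits of the catalytic F1 head and the large subunits of the enzyme. ATP5F1A measured 124, 129 and 135 CPM in D146N fractions 7 and 8, and 7.48, 9.31 and 9.73 CPM in D146N fractions 3 and 4. Its WT levels were 5.12, 5.57 and 7.89 CPM in fractions 7 and 8, and 111, 116 and 124 CPM in fractions 3 and 4. The sides lay more than 10-fold apart in each genotype. The log2 fold change on the TMM scale was 0.92 ± 0.06 in D146N cells (adjusted p = 3.87e-15) and -1.63 ± 0.06 in WT cells (adjusted p = 2.28e-22), and 3.85 and -4.30 on library totals.

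ATP5F1B measured 223, 231 and 247 CPM in D146N fractions 7 and 8, and 14.6, 15.9 and 17.6 CPM in D146N fractions 3 and 4. WT cells had 9.74, 11.1 and 12.8 CPM in fractions 7 and 8, and 199, 200.2 and 206 CPM in fractions 3 and 4. The order of the groups was that of ATP5F1A. Its log2 fold change was 0.94 ± 0.06 in D146N cells (adjusted p = 9.00e-16) and -1.49 ± 0.06 in WT cells (adjusted p = 9.04e-22). BAZ2A and the small nucleolar RNA genes SNORD59A and SNORD59B overlap ATP5F1B.

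On the TMM scale the mRNAs of the central stalk went with those of the small subunits. ATP5F1E, the epsilon subunit, measured 106, 111 and 117 CPM in D146N fractions 7 and 8, and 161, 171 and 183 CPM in D146N fractions 3 and 4. The WT libraries gave 242, 364 and 373 CPM in fractions 7 and 8, and 94.9, 98.4 and 102 CPM in fractions 3 and 4. The sides did not overlap, and the lowest WT value of fractions 7 and 8 was replicate 3 of fraction 8. The log2 fold change on the TMM scale was -3.55 ± 0.12 in D146N cells (adjusted p = 5.69e-19) and 4.51 ± 0.13 in WT cells (adjusted p = 3.85e-21), and -0.62 and 1.80 on library totals. The read-through gene SLMO2-ATP5E and TUBB1 overlap ATP5F1E. The gamma subunit ATP5F1C had 89.1 CPM in WT fraction 8 replicate 3, against 26.9 to 32.0 CPM in the other 5 WT libraries of fractions 7 and 8. Its WT log2 fold change was 2.101, and 1.88 without that library.

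ATP5PF, coupling factor 6 of the peripheral stalk, measured 43.0, 48.2 and 50.4 CPM in D146N fractions 7 and 8, and 82.7, 88.7 and 94.0 CPM in D146N fractions 3 and 4. In WT cells the values were 98.6, 107 and 139 CPM in fractions 7 and 8, and 34.7, 36.7 and 39.1 CPM in fractions 3 and 4. The sides did not overlap in either genotype. Its log2 fold change was -3.82 ± 0.06 in D146N cells (adjusted p = 3.35e-33) and 4.27 ± 0.07 in WT cells (adjusted p = 5.80e-34), and -0.89 and 1.59 on library totals. ATP5PB, the long b subunit of the same stalk, had log2 fold changes of 0.00 (adjusted p = 0.995) and 0.06 (adjusted p = 0.711) in D146N and WT cells. Without WT fraction 8 replicate 3, which held 44.1 CPM of it, the WT value was -0.23 (adjusted p = 2.83e-05). The 2 other stalk members, ATP5PD and ATP5PO, were at -1.99 and -2.75 in D146N cells and at 2.51 and 3.01 in WT cells.

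**Figure D3:**
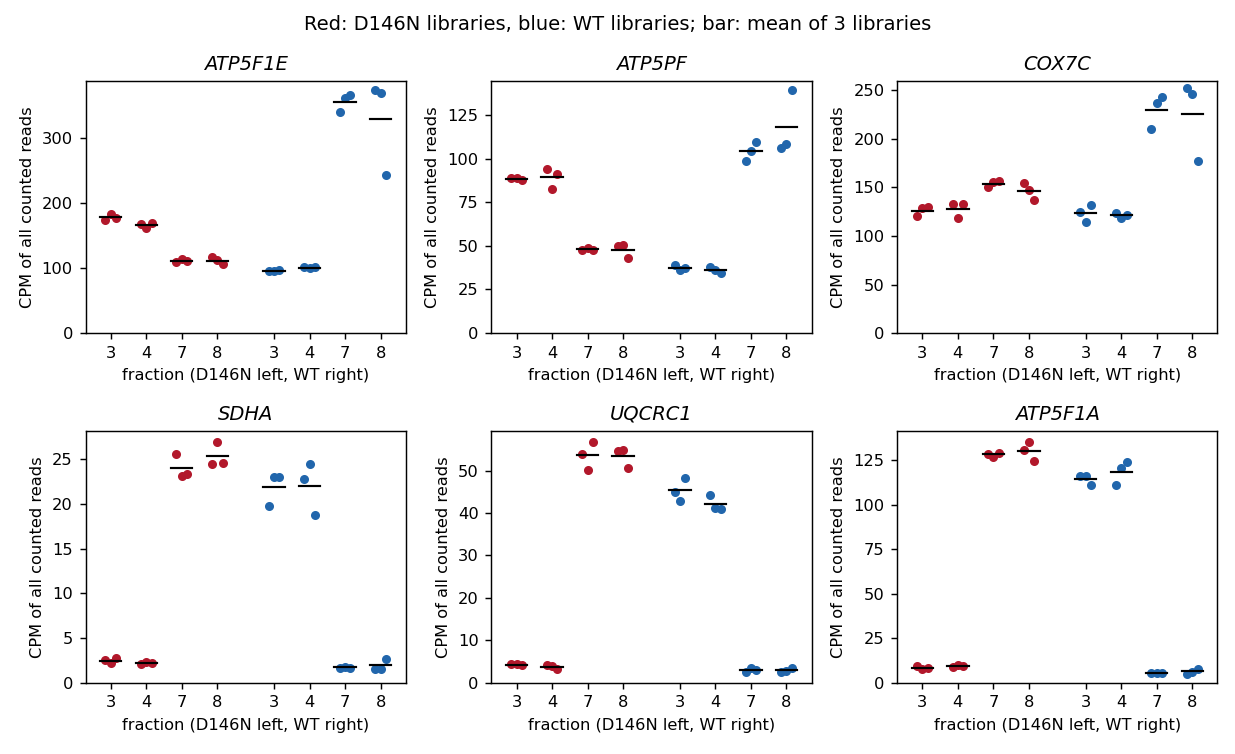
CPM of 6 members in each library (1 point) by fraction, D146N in red on the left and WT in blue on the right, with bars for means of 3 libraries. SDHA, UQCRC1 and ATP5F1A are near 0 in D146N fractions 3 and 4 and WT fractions 7 and 8, whereas ATP5F1E and ATP5PF are highest in WT fractions 7 and 8.

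The strip plot of 6 members shows replicate 3 of WT fraction 8 apart from its partners, low for ATP5F1E and COX7C and high for ATP5PF. The c ring of ATP synthase is built from 1 mature protein that is encoded by ATP5MC1, ATP5MC2 and ATP5MC3, whose precursors differ in the import sequence. Counts of the 3 genes were distributed differently between fractions. ATP5MC2 took 48.6% to 50.9% of their summed counts in D146N fractions 7 and 8 and 69.0% to 72.0% in D146N fractions 3 and 4. In WT cells it took 68.3% to 71.2% in fractions 7 and 8 and 50.6% to 53.6% in fractions 3 and 4. ATP5MC3 made up most of the rest, with medians of 38.3% and 21.3% in D146N cells and of 20.2% and 36.3% in WT cells on the same sides. These shares need no scaling between libraries, and the ranges of the 2 sides did not overlap for ATP5MC2 or ATP5MC3 in either genotype. The inhibitor ATP5IF1 was at -0.85 ± 0.07 in D146N cells and 1.102 ± 0.07 in WT cells on the TMM scale, and at 2.08 and -1.59 on library totals.

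**Figure D4:**
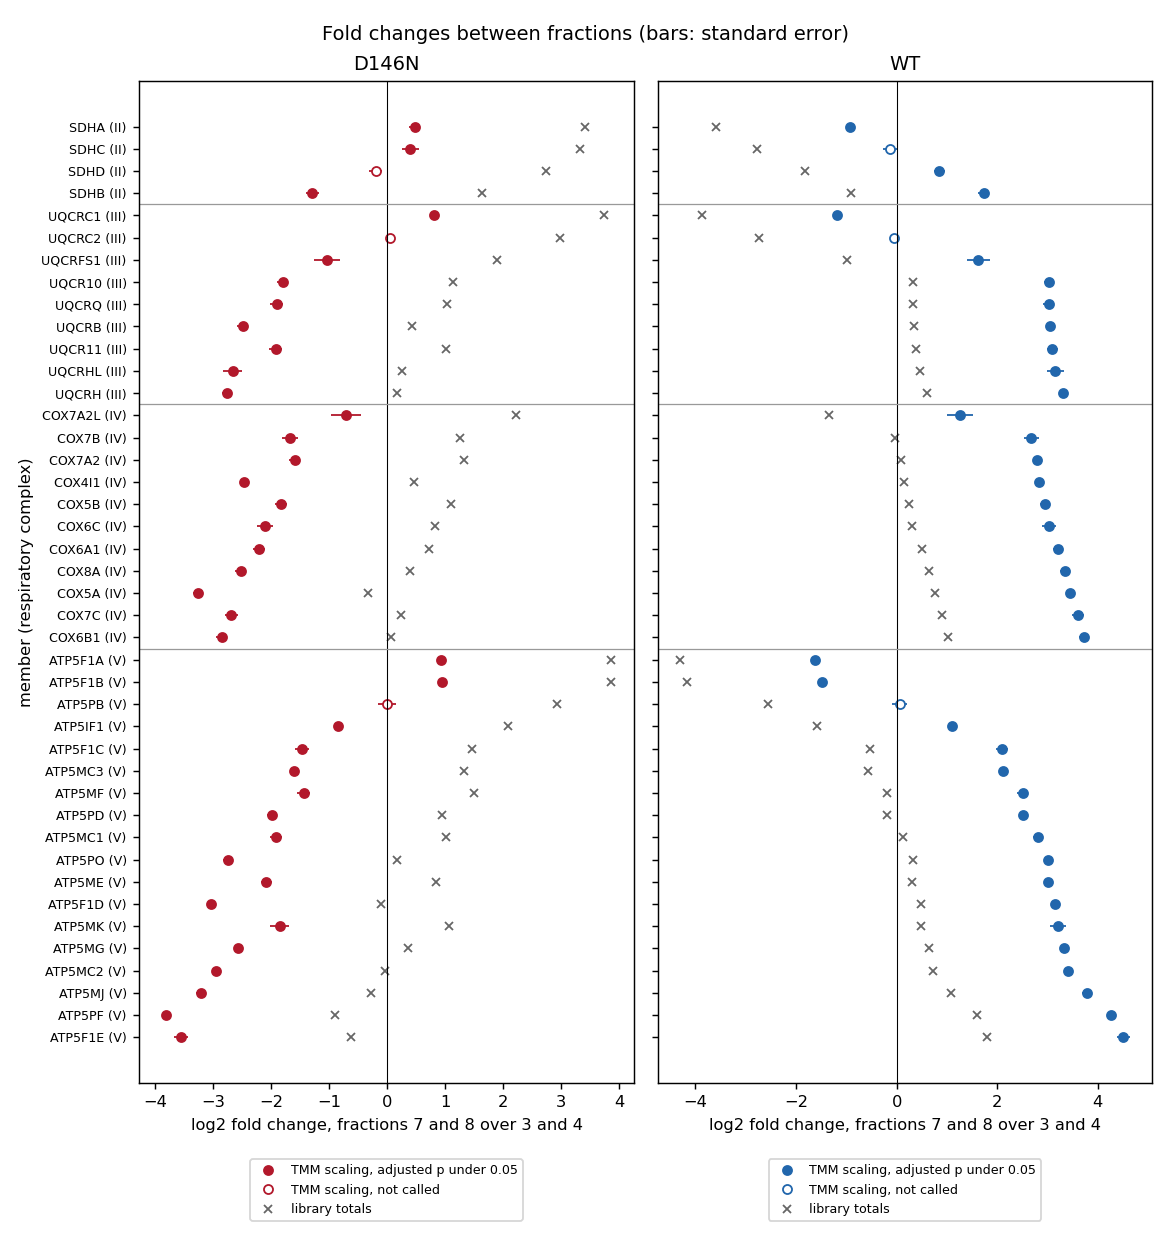
Log2 fold change of fractions 7 and 8 over 3 and 4 for each tested member, D146N left and WT right, with the standard error as a bar and filled circles for an adjusted p under 0.05. Crosses give the value on library totals. On the TMM scale the members run from -3.82 to 0.94 in D146N cells and from -1.63 to 4.51 in WT cells.

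The difference between the genotypes was tested directly as the interaction of genotype and fraction. In the D146N contrast minus the WT contrast, 35 of the 42 members were lower, 5 were higher and 2 did not pass (35.4% of all genes lower and 41.7% higher), with a median of -4.88. On library totals 28 were higher and 11 lower (88.1% and 6.41% of all genes), with a median of 0.76. The plot of fold changes for both genotypes shows the members in much the same order with turned signs. The most negative values were -8.09 ± 0.09 for ATP5PF (adjusted p = 1.44e-38), -8.06 ± 0.18 for ATP5F1E (adjusted p = 8.44e-24) and -6.99 ± 0.13 for ATP5MJ (adjusted p = 4.12e-33). The most positive were 2.55 ± 0.09 for ATP5F1A (adjusted p = 4.75e-24), 2.43 ± 0.09 for ATP5F1B (adjusted p = 6.51e-24) and 1.99 ± 0.11 for UQCRC1 (adjusted p = 1.67e-18). These 6 kept their sign on library totals, at -2.48, -2.42 and -1.36 for ATP5PF, ATP5F1E and ATP5MJ, and at 8.15, 8.04 and 7.596 for ATP5F1A, ATP5F1B and UQCRC1.

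Within a fraction, D146N and WT cells differed in nearly every tested member. In fraction 3, 34 members were higher and 4 lower in D146N cells (25.8% and 23.9% of all genes), with a median log2 fold change of 2.25. In fraction 4 the counts were again 34 and 4 (25.7% and 22.8% of all genes), with a median of 2.15. In fraction 7, 5 were higher and 33 lower (32.4% and 31.1% of all genes), with a median of -2.73. In fraction 8, 4 were higher and 34 lower (32.5% and 32.6% of all genes), with a median of -2.495.

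ATP5PF had the highest genotype difference in fractions 3 and 4, and ATP5F1E the lowest in fractions 7 and 8. In fraction 3, ATP5PF measured 88.0 to 88.8 CPM in D146N cells and 36.3 to 39.1 CPM in WT cells, a log2 fold change of 4.02 ± 0.09 on the TMM scale (adjusted p = 2.89e-28) and of 1.24 on library totals. In fraction 4 the value of ATP5PF was 4.08 ± 0.09. ATP5F1E, the next highest there, measured 161 to 170 CPM in D146N cells and 99.6 to 102 CPM in WT cells, a log2 fold change of 3.50 ± 0.18 (adjusted p = 2.83e-15). ATP5F1A was the lowest in both, at -0.98 ± 0.09 in fraction 3 (adjusted p = 1.48e-11) and -0.86 ± 0.09 in fraction 4 (adjusted p = 2.69e-10). In fraction 7 the same gene was the highest, at 1.604 ± 0.09 (adjusted p = 2.71e-17), from 127 to 129 CPM in D146N cells and 5.28 to 5.62 CPM in WT cells. ATP5F1E was the lowest in fraction 7 at -4.62 ± 0.18 (adjusted p = 1.26e-17) and in fraction 8 at -4.34 ± 0.18 (adjusted p = 3.79e-17).

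The other members at the ends of these contrasts were few. In fractions 3 and 4, ATP5F1E and COX5A stood high with ATP5PF, COX5A at log2 fold changes of 3.52 and 3.45, and ATP5F1B and UQCRC1 stood low with ATP5F1A, UQCRC1 at -0.62 and -0.71. In fractions 7 and 8, ATP5F1B and UQCRC1 stood high, ATP5F1B at 1.51 and 1.604 and UQCRC1 at 1.19 and 1.46. ATP5PF and ATP5MJ stood low there, ATP5PF at -4.07 and -4.01 and ATP5MJ at -3.76 and -3.54. All of these were called, and their signs were the same on library totals.

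On library totals these splits changed as well. There were 9 members higher and 27 lower in fraction 3 (3.9% and 84.7% of all genes), and 8 higher and 27 lower in fraction 4 (3.78% and 84.3%). In fraction 7, 21 were higher and 9 lower (83.6% and 5.4%), and in fraction 8, 20 were higher and 8 lower (80.9% and 6.08%). The medians were -0.53, -0.63, 0.22 and 0.24 in fractions 3, 4, 7 and 8.

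Crossing the fraction numbers gave far smaller differences. D146N fractions 7 and 8 and WT fractions 3 and 4 had 20 members higher and 0 lower (6.9% and 10.4% of all genes). All 42 lay between -0.15 and 0.60 on the log2 scale, around a median of 0.24. On library totals 34 members were higher and 0 lower (16.8% and 5.29% of all genes), with a median of 0.38. The 3 largest were 0.60 ± 0.10 for SDHD (adjusted p = 4.73e-05), 0.41 ± 0.10 for ATP5MF (adjusted p = 0.00727) and 0.40 ± 0.09 for UQCR10 (adjusted p = 0.00155). D146N fractions 3 and 4 and WT fractions 7 and 8 had 5 members higher and 24 lower (17.1% and 12.1% of all genes), with a median of -0.42. On library totals 4 were higher and 27 lower (12% and 15% of all genes). The higher ones were led by ATP5F1A at 0.71 ± 0.07 (adjusted p = 3.88e-10), ATP5F1B at 0.62 ± 0.06 (adjusted p = 1.69e-09) and UQCRC1 at 0.52 ± 0.09 (adjusted p = 1.28e-05). The lowest were UQCR11 at -1.03 ± 0.11 (adjusted p = 1.51e-07), ATP5MK, a small subunit of the membrane part, at -1.02 ± 0.15 (adjusted p = 5.17e-05), and ATP5F1E at -0.92 ± 0.11 (adjusted p = 5.25e-07). An effect of genotype and a difference in what the fraction numbers stand for in the 2 genotypes cannot be told apart in this design.

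Neighbouring fractions were close to each other. No member was called between fractions 4 and 3 or between fractions 8 and 7 in either genotype by edgeR or by DESeq2, and 0% of all genes were called higher and 0% lower by edgeR. At an unadjusted p under 0.05 there were 9 members between WT fractions 8 and 7 and 0 in each of the 3 other pairs. Among the 18907 genes tested, 1727 were under that limit between WT fractions 8 and 7. The others had 830 (WT fractions 4 and 3), 765 (D146N fractions 4 and 3) and 653 (D146N fractions 8 and 7). The members' log2 fold changes between neighbours ran from -0.20 to 0.22 for D146N fraction 8 against 7 and from -0.38 to 0.95 for WT fraction 8 against 7. The value of 0.95 is COX7A2L, which rests on WT fraction 8 replicate 3. Without that library COX7A2L was at -0.06, the members ran from -0.32 to 0.17, and 1 of 43 had an unadjusted p under 0.05.

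To set the genotypes side by side without fraction numbers, the counts of the 4 fractions were summed within each replicate number, and 44 members were tested among 20562 genes. In these sums 8 members were higher and 20 lower in D146N cells (14.9% and 12.5% of all genes), with a median of -0.13. On library totals 11 were higher and 16 lower (23% and 7.76% of all genes). The highest were SDHD at 0.52 ± 0.09 (adjusted p = 0.000548), SDHC at 0.39 ± 0.06 (adjusted p = 9.51e-05) and UQCRC1 at 0.28 ± 0.05 (adjusted p = 0.000148). COX8C, at or below 0.544 CPM in every library, was the lowest at -1.57 ± 0.47 (adjusted p = 0.0196), a call that was lost at equal depth (-1.31, adjusted p = 0.0554). The next lowest were ATP5F1E at -0.82 ± 0.08 (adjusted p = 0.000376), COX7C at -0.50 ± 0.05 (adjusted p = 8.56e-07) and UQCR11 at -0.49 ± 0.05 (adjusted p = 8.56e-07). Each fraction weighs by its depth in the sums. With every library brought to the same depth first, a choice made after seeing the data, 9 members were higher and 15 lower of 43 tested (13.3% and 11.4% of all genes).

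Other genes of the same pathway were counted from lists, to be read against 30.3% of all genes lower and 29.9% higher in D146N fractions 7 and 8, and 34.6% higher and 39.3% lower in WT fractions 7 and 8. Of 38 nuclear complex I subunit genes, 34 were lower and 4 higher in D146N fractions 7 and 8, and 34 were higher and 4 lower in WT fractions 7 and 8, with medians of -1.69 and 2.55. Of 40 assembly factor genes of complexes II to V, 22 were lower and 6 higher in D146N cells, and 28 were higher and 6 lower in WT cells, with medians of -0.56 and 0.86. CYCS, which encodes cytochrome c, was at -0.47 in D146N cells and 1.34 in WT cells, called in both. Of 11 rows of mitochondrially encoded mRNAs, 8 were lower and 3 higher in D146N cells, and 4 were higher and 7 lower in WT cells, with medians of -1.09 and -0.40. All of these are on the TMM scale. On library totals the medians in D146N and WT cells were 1.23 and -0.12 for complex I, 2.37 and -1.80 for the assembly factors and 1.83 and -3.05 for the mitochondrial mRNAs, and CYCS was at 2.46 and -1.32.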

How the data were processed

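The authors deposited expected counts per gene, 61853 Ensembl rows for 24 libraries; 73.3% of values above 0 were whole (within 0.005), the others fractions of reads. Per the submitters' processing notes, which give no roles, the tools were featureCounts 1.5.1, HISAT2 2.1.0, SAMtools and Bowtie2 2.3.5, with the build hg38. Symbols were found for 61803 rows. Counts were rounded and fitted with edgeR 4.0.16 (R 4.3.3; 8 group means over all 24 libraries, TMM, filterByExpr, quasi-likelihood test, Benjamini-Hochberg over all genes tested, called at 0.05), since the design had assumed whole counts. The biological coefficient of variation was 13.8%. The code was run on simulated counts in which few genes changed, unlike these data, so that run cannot speak to the choice of scaling. Fold changes are printed for the 4 complex II genes, the 2 highest and 2 lowest of each other complex in the WT contrast at 10 CPM or more, and the 3 highest and 3 lowest called members of the other contrasts; other members were named after their values were seen. Members and lists were chosen with earlier results of these data known. A planned comparison with mRNA length was not run. Levels were not set per length, so the shares of the complexes and of the c ring genes rest on counts without regard to length. Alternatives were library totals, RLE size factors, DESeq2 1.42.0, no filter, TMM without small and mitochondrial RNA rows, pseudogene counts added, a replicate block, and each library left out.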

Additional observations from a re-analysis of the deposited data

Results flagged for a closer look

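The contrast of fractions 7 and 8 with fractions 3 and 4 differed between D146N and WT cells in 40 of 42 members by the interaction test, 35 of them lower and 5 higher in D146N cells than in WT cells on the TMM scale (35.4% and 41.7% of all genes). On library totals 28 were higher and 11 lower (88.1% and 6.41% of all genes). The most negative of these differences on the TMM scale were those of ATP5PF and ATP5F1E.

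The 133 pseudogene rows named after members are outside the comparisons, and 21 of them were above 3 counts, the limit that a count of 0 allows, in at least 1 library. They held 0.734% of the counts of members and copies together. Rows of SDHA copies held 7766 counts, those of COX6A1 copies 1775 counts and those of UQCRFS1 copies 833 counts over the 24 libraries.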

How the results depend on the processing

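On library totals the median of the members turned its sign in 8 comparisons. It was 1.02 for D146N fractions 7 and 8 against 3 and 4, -0.53, -0.63, 0.22 and 0.24 for D146N against WT in fractions 3, 4, 7 and 8, 0.76 for the interaction, 0.0099 for WT fraction 8 against 7 and -0.0255 for D146N fraction 8 against 7. Members called in opposite directions on the 2 scales numbered 26 in the D146N contrast and 9 in the WT contrast, and the share of all genes that turned was not counted. Among the members chosen by the naming rule, those of the D146N contrast turned to 1.64 (SDHB), 2.73 (SDHD), 0.17 (UQCRH), 1.01 (UQCR11), 0.0729 (COX6B1), 0.24 (COX7C), 1.25 (COX7B) and 2.22 (COX7A2L). Those of the WT contrast turned to -0.92 (SDHB), -1.82 (SDHD), -0.0331 (COX7B) and -1.34 (COX7A2L). UQCRC2, not called in the WT contrast, turned to 0.0348 with RLE size factors and 0.0312 with DESeq2, and was called without the filter (-0.22, adjusted p = 0.00839). SDHD in D146N cells, also not called, ranged from -0.26 to 0.0141 with 1 library left out, and was called at the lower end, without D146N fraction 4 replicate 2 (adjusted p = 0.0484). D146N fractions 7 and 8 against WT fractions 3 and 4 had 34 members called on library totals, and 20 to 24 with 1 library left out. WT fraction 8 against 7 had 3 called without the filter and 0 to 2 with 1 library left out. With pseudogenes added, complex shares moved to differences of 3.29 and -3.48 points (complex II, D146N and WT) and -0.84 points (complex III, WT).

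The counts of members called in either direction for the 2 fraction contrasts were 38 to 44 under every setting. Their directions changed with the scaling. D146N cells had 5 higher and 34 lower on the TMM scale (29.9% and 30.3% of all genes). On library totals they had 34 higher and 4 lower (88.9% and 4.08%). WT cells had 35 higher and 4 lower on the TMM scale (34.6% and 39.3%), and 23 higher and 16 lower on library totals (7.65% and 83.6%). With the replicate number as a block, D146N fractions 7 and 8 against WT fractions 3 and 4 had 21 members called and the other counts were as without it. Same-numbered libraries of a genotype did not deviate together (correlations of -0.02 to 0.03), so the main fit did not take the numbers as pairs. The sums of the 4 fractions and the SDs of the complex shares did join libraries by number. Leaving out WT fraction 8 replicate 3 gave 42 of 43 members called in the WT contrast, 36 higher and 6 lower. The share of all genes called in that refit was not kept, so this count cannot be set against genes at large. Of the 7 members too low for the fit by fraction, COX8C and ATP5MGL were tested in the sums, and whether depth limited the others was not tested.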
